A study of Mus musculus with 8 samples.

Results

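Basal keratinocytes are the dividing cells of the epidermis that sit on the basement membrane. Genes for their keratins, for the plaque that fixes these to the membrane and for adhesion are described here. The 8 genes are Krt5, Krt14, Krt15, Col17a1, Dst, Plec, Cdh3 and Cd151. They were chosen by name, and each was taken from the probe sets (groups of array probes for a transcript) that the platform annotation gives to that gene alone. All 8 were measured, each by 1 probe set, among 19935 genes in all. The samples were mouse skin from 4 Adam10 wild-type and 4 Adam10 knockout samples, with 1 Affymetrix Mouse Gene 1.0 array each. Adam10 encodes a membrane protease that cleaves surface proteins. The titles mark the knockouts as cKO, but the labels name neither the deleted exons nor the cells or promoter that drove the deletion, and they give no strain or age. The tissue is given as skin in one label and as primary skin cells in another. The labels do not say that each sample came from a separate animal, so p-values measure the spread between these samples, which may be technical.

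In the basal layer keratin 5 and keratin 14 pair into the intermediate filaments of the cell, and keratin 15 is another type I keratin of basal and hair follicle stem cells. Hemidesmosomes anchor these filaments. The plakins plectin (Plec) and BPAG1 (from Dst) link them inside the cell to integrin alpha6 beta4 and to collagen XVII (Col17a1), which spans the membrane and whose outer part can be shed by ADAM proteases. The tetraspanin Cd151 binds laminin-receptor integrins, and P-cadherin (Cdh3) is the classical cadherin of the basal layer and hair matrix. When keratinocytes leave the basal layer, keratins 1 and 10 replace 5 and 14.

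Promoter windows of 250 bases before a transcript start were taken from RefSeq (GRCm38.p6) because these genes differed between the genotypes in the same direction. The table held 7 windows for 5 of the genes, and none for Krt15, Plec or Cdh3. The 3 printed here end at the annotated gene's own end, while the other 4, of Krt14, Dst and Cd151, lie at starts inside the annotated gene. They are written 5′ to 3′ on the gene's strand, with capitals for the motif matches named next. The first is Krt5 at chr15:101712906-101713155 on the minus strand, the next Col17a1 at chr19:47692043-47692292 on the minus strand, and the last Cd151 at chr7:141467112-141467361 on the plus strand.
Krt5: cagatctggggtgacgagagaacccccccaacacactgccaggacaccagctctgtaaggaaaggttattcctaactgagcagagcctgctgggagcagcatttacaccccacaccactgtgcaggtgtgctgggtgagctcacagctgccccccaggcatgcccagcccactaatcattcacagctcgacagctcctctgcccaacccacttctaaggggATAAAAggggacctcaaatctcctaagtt
Col17a1: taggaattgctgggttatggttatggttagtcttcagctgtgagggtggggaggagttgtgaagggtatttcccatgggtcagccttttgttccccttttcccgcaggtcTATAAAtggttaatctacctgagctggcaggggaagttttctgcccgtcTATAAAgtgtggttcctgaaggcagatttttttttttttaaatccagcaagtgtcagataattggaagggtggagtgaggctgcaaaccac
Cd151: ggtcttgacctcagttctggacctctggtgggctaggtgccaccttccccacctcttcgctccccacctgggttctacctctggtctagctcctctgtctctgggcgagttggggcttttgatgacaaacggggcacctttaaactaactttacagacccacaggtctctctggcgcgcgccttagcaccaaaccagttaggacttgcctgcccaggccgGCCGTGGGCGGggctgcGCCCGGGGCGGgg
Both strands were searched for 6 motifs, of which the TATA box and the TATA-like run can overlap, as can the GC box and the AP-2 site. The Krt5 window held 1 match, the TATA-like run ATAAAA, starting 29 bases before the start. Such a run is in 17.0% of all 32851 windows. Col17a1 had a TATA box, TATAAA, at 140 and at 91 bases before the start, and 12.4% of windows have it. The Cd151 window had 2 GC boxes (GGGCGG), at 25 and 8 bases, found in 32.7% of windows. Each overlapped an AP-2 match (GCCNNNGGC), at 30 and 13 bases, found in 13.7% of windows. The AP-1 site TGANTCA, in 6.75% of windows, was in none of the 3. The site of RBPJ, the DNA-binding partner of Notch, was searched as GTGGGAA. It is in 5.42% of windows and was in none of the 3. These matches are descriptions of letters and not of binding.

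Values are log2 of the deposited intensity, and array numbers only name the arrays within a genotype. The sample titles carry other numbers, each after the letter P, and the labels explain neither the letter nor the numbers. Knockout array 4 has a title number below those of the wild-type arrays, and the other knockout arrays have numbers above them. Anything these numbers stand for cannot be fully told apart from genotype and was not tested. Adam10 itself differed by -0.36 between knockout and wild type and missed the threshold (limma, SE 0.11, adjusted p = 0.064). All 4 knockout arrays lay below all 4 wild-type arrays, but only by 0.02, while the wild-type arrays spread over 0.32. Wild-type arrays 3 and 4 held more signal of most muscle and dermal markers than the other 6 arrays. Of the dermal markers Dcn, Sparc and Fbln1 did not follow this order, and differed by 0.48, 0.24 and -0.02 between knockout and wild type. Without wild-type arrays 3 and 4, 2 of the 8 dermal markers were called higher in the knockout and 0 lower, against 2.96% of all genes called higher. The 11 skeletal muscle markers summed to between 246 and 6947 intensity units on the wild-type arrays and between 201 and 259 on the knockout arrays, and the 8 dermal fibroblast markers to between 1351 and 8415 against 1789 to 1992. Over the 7 pan-epithelial markers the sums were 4378 to 6990 against 5945 to 6462, lowest on wild-type array 4. The adipocyte markers (7, summing to 72.9 to 1273 in wild type against 70.8 to 81.5) and endothelial markers (7, 64.5 to 425 against 59.4 to 74.4) were highest on that array too. Of 5 melanocyte markers 2 rose, against 6.41% of all genes: Mlana by 1.01 and Pmel by 0.66, with sums of 304 to 473 against 467 to 778. The part of these cells in the results was not tested. In bulk RNA a different number of cells and a different amount of RNA per cell cannot be told apart.

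Of the 8 genes 7 were higher in the knockout at an adjusted p under 0.05 in limma, adjusted over all 19935 genes, and 0 were lower. The largest rises were in Col17a1 (2.28-fold) and Cdh3 (2.11-fold), and Plec was the gene that missed. The number called was 2 without knockout array 2, 3 without wild-type array 3 or knockout array 3, and 4 without knockout array 1. Over all genes 6.41% were called higher and 2.34% lower. All 8 genes lie at or above the median level of the table, where 12.0% of genes were called higher. Their median difference was 0.59 on the log2 scale, against 0.0027 over all genes and 0.11 over genes at or above the median level. All 8 had every knockout array above every wild-type array, as had 12.2% of all genes and 22.3% of those at or above the median level. Quantile normalization and cyclic loess, which make the arrays' distributions more alike, left 4 of the 8 called, Krt14, Col17a1, Dst and Cdh3, with medians of 0.49 and 0.46. There 3.58% and 3.38% of all genes were called higher. All genes called split into 1277 higher and 467 lower as deposited, 713 and 549 after quantile normalization, and 674 and 653 after cyclic loess.

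The 3 basal keratins were higher in the knockout skin by 1.29-fold to 1.55-fold, and each passed the threshold. Krt5, the type II keratin of the basal layer, was at 12.07, 12.04, 12.03 and 11.75 on wild-type arrays 1 to 4 and at 12.37, 12.40, 12.31 and 12.29 on knockout arrays 1 to 4. The groups did not overlap, and wild-type array 4 was the lowest. The difference was 0.37 (SE 0.10, adjusted p = 0.046), or 1.29-fold with a 95% interval of 1.11 to 1.51.

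Krt14, its type I partner, was at 11.53, 11.56, 11.40 and 11.04 in wild type and at 12.04, 12.12, 12.03 and 11.86 in knockout. Every knockout array lay above every wild-type array, again with wild-type array 4 lowest. The difference was 0.63 (SE 0.13, adjusted p = 0.016), or 1.55-fold (95% interval 1.27 to 1.88).

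Krt15 was at 10.65, 10.89, 10.66 and 10.39 in wild type and at 11.15, 11.16, 11.00 and 11.14 in knockout. The gap between the groups was narrow, 0.11 between wild-type array 2 and knockout array 3. The difference was 0.46 (SE 0.11, adjusted p = 0.034), or 1.38-fold (95% interval 1.16 to 1.64). The calls of Krt5 and Krt15 did not hold when single arrays were left out: Krt5 passed in 1 of the 8 fits and Krt15 in 2. Krt14 passed in 7 of 8 and missed without knockout array 2 (adjusted p = 0.061).

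**Figure D1:**
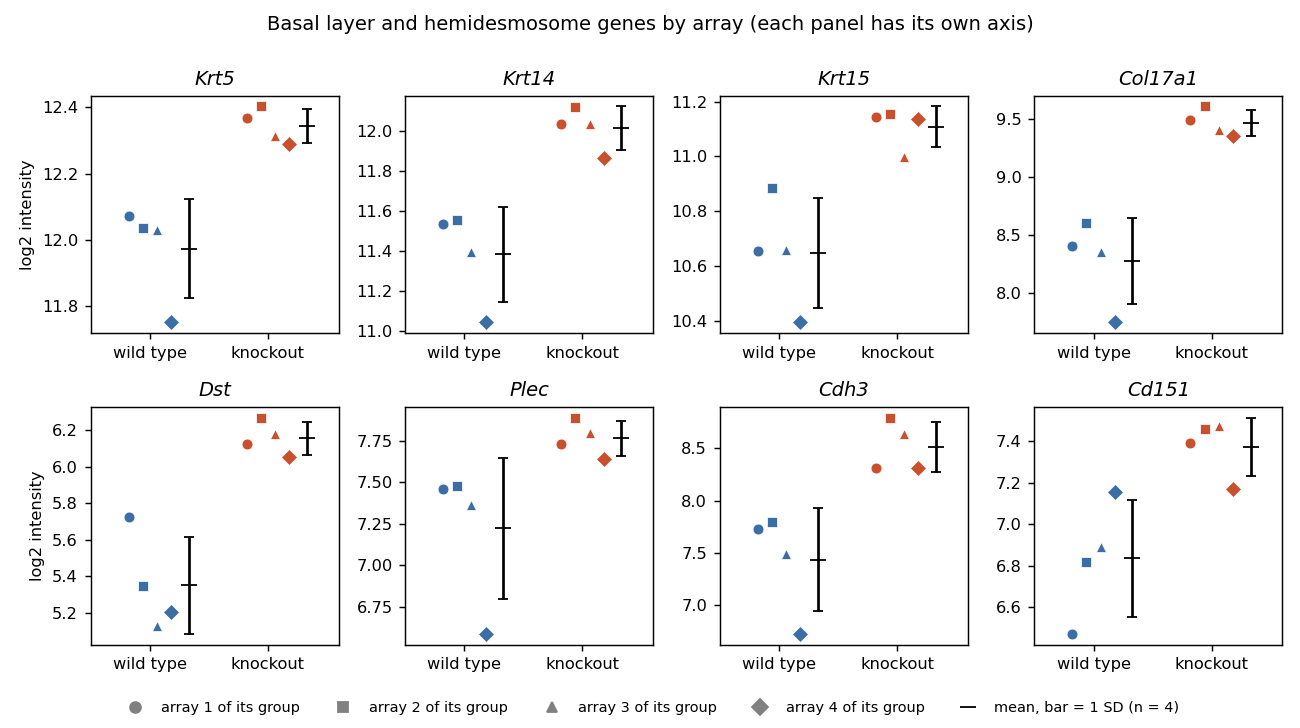
Log2 intensity of each of the 8 genes on each array, with wild type on the left and knockout on the right of every panel. Marker shape gives the array number, bars show the mean and 1 SD (n = 4), and each panel has its own axis. The groups do not overlap in any panel, and the gap is smallest for Cd151 (0.01).

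Among the hemidesmosome plaque genes Col17a1 rose most and Plec did not pass. Col17a1 was at 8.40, 8.60, 8.35 and 7.75 on the wild-type arrays and at 9.49, 9.61, 9.40 and 9.35 on the knockout arrays. The lowest knockout array lay 0.75 above the highest wild-type array, while the wild-type arrays spread over 0.85. The difference was 1.19 (SE 0.17, adjusted p = 0.0040), or 2.28-fold (95% interval 1.76 to 2.94).

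Dst, which encodes the epithelial plakin BPAG1 along with longer neuronal and muscle forms, was at 5.72, 5.35, 5.13 and 5.20 in wild type and at 6.13, 6.27, 6.18 and 6.05 in knockout. The probe set is annotated to 4 RefSeq mRNAs of the gene, so the value does not separate these forms. The knockout arrays stayed within 0.21 of each other and all lay above wild-type array 1, the highest of its group. The difference was 0.81 (SE 0.13, adjusted p = 0.0068), or 1.75-fold (95% interval 1.43 to 2.15). Col17a1 and Dst passed in all 8 fits with an array left out.

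Plec, the plakin that binds integrin beta4, was at 7.46, 7.48, 7.36 and 6.59 in wild type and at 7.73, 7.89, 7.80 and 7.64 in knockout. The groups did not overlap, but wild-type array 4 lay far below the other 3. The difference was 0.54 (SE 0.19) and missed the threshold (adjusted p = 0.099). Without wild-type array 4 it was 0.33 (adjusted p = 0.060), and its 95% interval with all arrays, 0.13 to 0.95, is wide.

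The adhesion genes Cdh3 and Cd151 were also higher in the knockout. Cdh3 was at 7.73, 7.80, 7.48 and 6.73 in wild type and at 8.32, 8.79, 8.63 and 8.32 in knockout. The groups were separated by 0.52, with wild-type array 4 lowest and knockout array 2 highest. The difference was 1.08 (SE 0.22, adjusted p = 0.017), or 2.11-fold (95% interval 1.50 to 2.98). It passed in 5 of 8 fits with an array left out and missed without wild-type array 3 or knockout array 2 or 3 (highest adjusted p = 0.066).

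Cd151 was at 6.47, 6.82, 6.89 and 7.16 in wild type and at 7.39, 7.46, 7.47 and 7.17 in knockout. Here wild-type array 4 was the highest of its group, and knockout array 4 lay only 0.01 above it. The difference was 0.54 (SE 0.14, adjusted p = 0.046), or 1.45-fold (95% interval 1.16 to 1.81). The call held in 2 of the 8 fits with an array left out, those without wild-type array 4 (adjusted p = 0.012) or knockout array 4, and missed in the other 6 (highest adjusted p = 0.13).

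**Figure D2:**
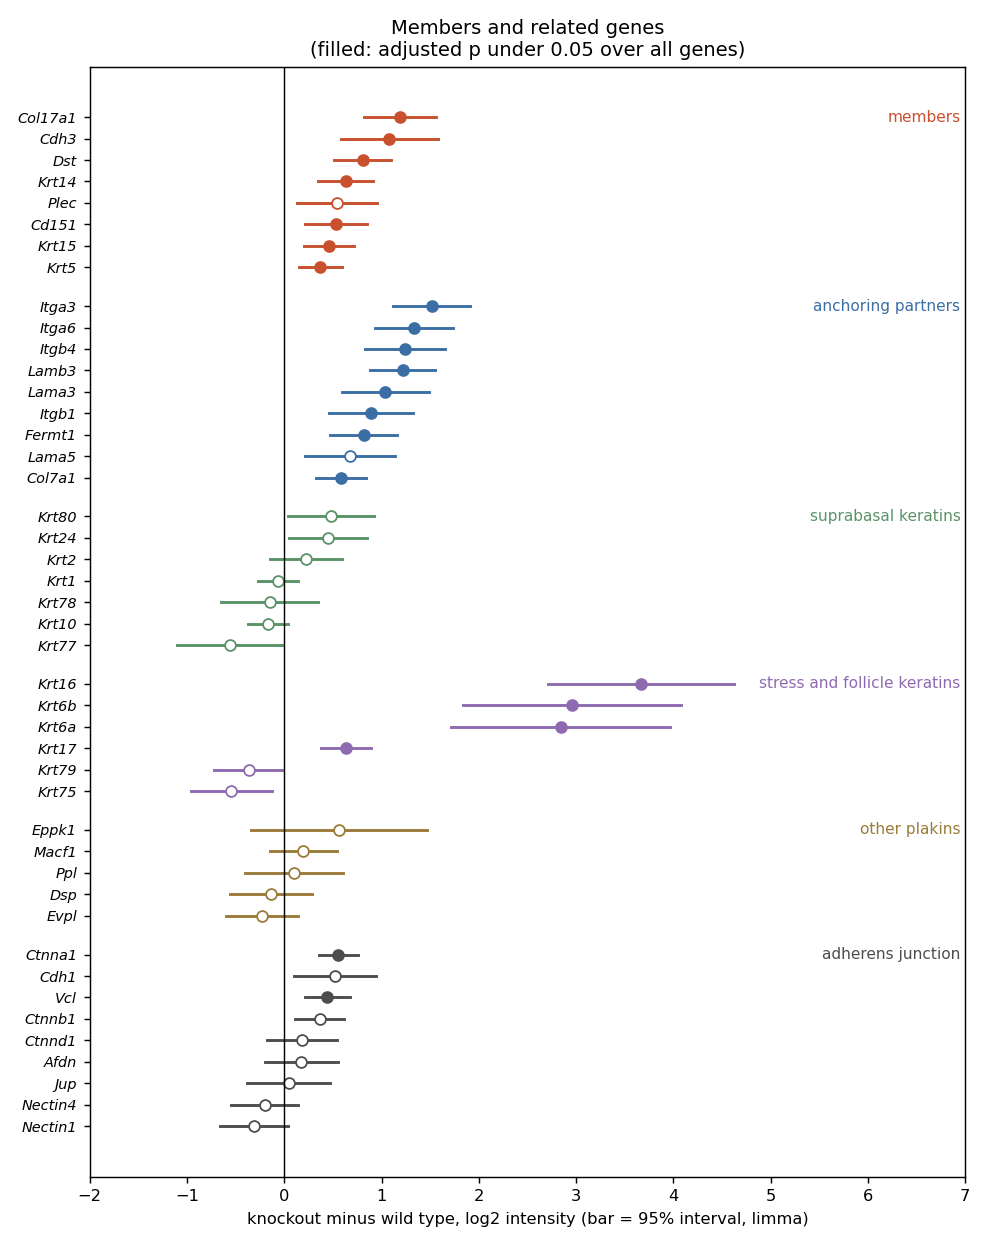
Knockout minus wild type in log2 intensity for the 8 members and for 5 lists of related genes, with 95% intervals from limma. Filled points passed at an adjusted p under 0.05 over all genes. The anchoring partners lie to the right of 0 like the members, while the suprabasal keratins and the other plakins have no filled point.

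The arrays ranked most of the genes alike, with exceptions. Wild-type array 4, with the most muscle and dermal signal, was the lowest array for Krt5, Krt14, Krt15, Col17a1, Plec and Cdh3. It lay at -1.12 for Col17a1 and -1.25 for Cdh3 relative to each gene's mean of the 8 arrays. Dst was lowest on wild-type array 3, and Cd151, a tetraspanin of many tissues, was higher on wild-type array 4 (0.05) than on the other wild-type arrays (-0.63 to -0.21). Knockout array 2 was the highest knockout array for 7 of the genes, and for Cd151 it was knockout array 3. Knockout array 4 was the lowest knockout array for every gene but Krt15, where knockout array 3 was lowest.

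Without wild-type arrays 3 and 4 all 8 genes had both wild-type arrays below every knockout array, as had 18.1% of all genes. For the 8 genes this follows from the separation already present with all arrays, so it is no further result. Without these arrays the differences fell to 0.29 for Krt5, 0.47 for Krt14 and 0.34 for Krt15. These keratins no longer passed (adjusted p 0.058 to 0.18). Plec was at 0.30. Col17a1 at 0.96, Cdh3 at 0.75 and Dst at 0.62 passed, and Cd151 grew to 0.72 (adjusted p = 0.024). Over all genes 2.96% were called higher in that fit. With the muscle marker mean as a covariate the differences were 0.90 for Col17a1, 0.68 for Cdh3, 0.25 for Krt5 and 0.74 for Cd151, with 5 of the 8 called. With the pan-epithelial mean as a covariate they were 0.99, 0.82, 0.28 and 0.67, also with 5 called. Over all genes 4.32% and 6.36% were called higher in these fits. The genes that kept their call in both were Krt14, Col17a1, Dst, Cdh3 and Cd151.

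**Figure D3:**
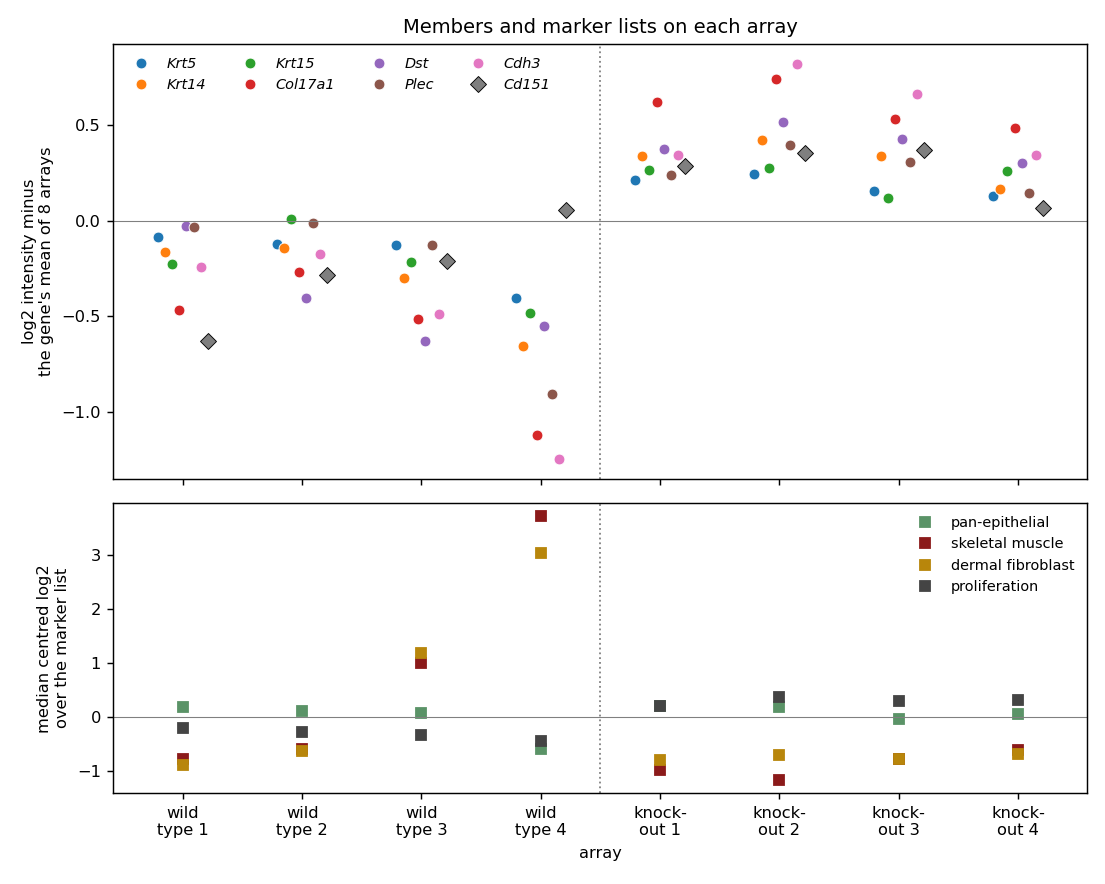
Top, log2 intensity of each member minus its own mean of the 8 arrays, by array. Bottom, the median of the same centred values over 4 marker lists. Wild-type array 4 is high in muscle (3.71) and dermal (3.04) markers and low in every member but Cd151, drawn as a diamond.

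**Figure D4:**
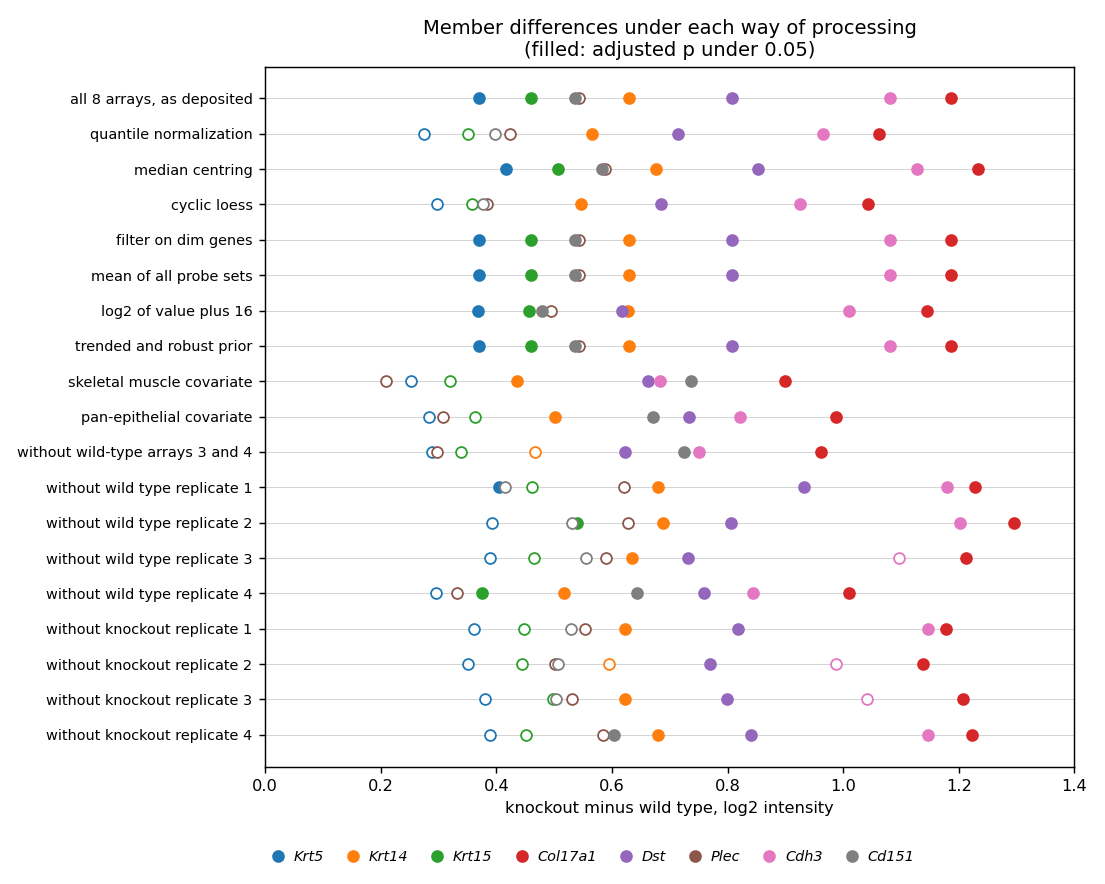
Knockout minus wild type in log2 intensity for each member (colour) under each way of processing (line). Filled points have an adjusted p under 0.05. Every point lies above 0, and Col17a1 and Dst are filled throughout.

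Differences between a member and a partner gene within the same array ask whether they changed unequally. Each of 8 pairs was tested by permuting genotype over all 70 arrangements of the arrays, exact and two-sided. The smallest p this allows is 0.0286, which after Benjamini-Hochberg adjustment over the 8 pairs was 0.046 for the 5 pairs that reached it. The pairs were chosen with earlier results of these data known, so their p-values are descriptive and not independent support.

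The basal keratins changed against the suprabasal keratins of their own type. Krt5 minus Krt1, the type II keratins, was at -0.49, -0.47, -0.47 and -0.53 on the wild-type arrays and at -0.08, 0.01, -0.05 and -0.10 on the knockout arrays. Wild-type array 4, where Krt5 itself was low, did not stand apart here. The mean was 0.44 higher in the knockout (SE 0.03, exact permutation p = 0.0286, n = 4 against 4), and 0.43 without wild-type arrays 3 and 4. Krt14 minus Krt10, the type I keratins, rose from -1.06 ± 0.16 to -0.27 ± 0.16 (SD, n = 4), a change of 0.80 (exact permutation p = 0.0286). Krt1 and Krt10 themselves differed by -0.07 (95% interval -0.27 to 0.14) and -0.17 (-0.37 to 0.04).

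The keratin partners did not rise equally. Krt5 minus Krt14 was at 0.54, 0.48, 0.63 and 0.71 in wild type and at 0.33, 0.28, 0.28 and 0.43 in knockout, lower on all 4 knockout arrays by a mean of 0.26 (exact permutation p = 0.0286). Without wild-type arrays 3 and 4 the change was -0.18. Krt15 minus Krt14 changed by -0.17, with overlap between the groups (exact permutation p = 0.114). Krt14 is close in sequence to the stress keratins Krt16 and Krt17, which rose by 3.66 and 0.63, and Krt5 to Krt6a and Krt6b, which rose by 2.84 and 2.96. The probe sequences were not used here, so the part of shared probes in these values was not tested.

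Col17a1 and its binding partner integrin beta4 changed by nearly the same amount. Col17a1 minus Itgb4 was at 1.36, 1.38, 1.37 and 1.45 in wild type and at 1.34, 1.28, 1.28 and 1.45 in knockout, a change of -0.05 (SE 0.05, exact permutation p = 0.229). On log2 of the intensity plus 16 it was 0.01. Dst minus Plec ran from -2.24 to -1.38 in wild type and from -1.62 to -1.58 in knockout, and the mean was 0.26 higher in the knockout (exact permutation p = 0.314). The overlap came from wild-type array 4 (-1.38), since the other 3 wild-type arrays (-2.24 to -1.73) lay below every knockout array. Without that array the change was 0.43, and without wild-type array 3 it was 0.14.

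Cdh3 minus Cdh1, P-cadherin against E-cadherin of all epidermal layers, rose from -1.98 ± 0.12 to -1.42 ± 0.18 (SD, n = 4), a change of 0.56 with no overlap (exact permutation p = 0.0286). Cd151 minus the integrin chain Itga3, which it binds, was at -0.33, 0.01, 0.17 and 1.12 in wild type and at -0.86, -0.82, -0.48 and -0.78 in knockout. Every knockout array was below every wild-type array, by a mean of 0.98 (exact permutation p = 0.0286). The wild-type values spread widely, with array 4 highest, and without arrays 3 and 4 the change was -0.57.

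**Figure D5:**
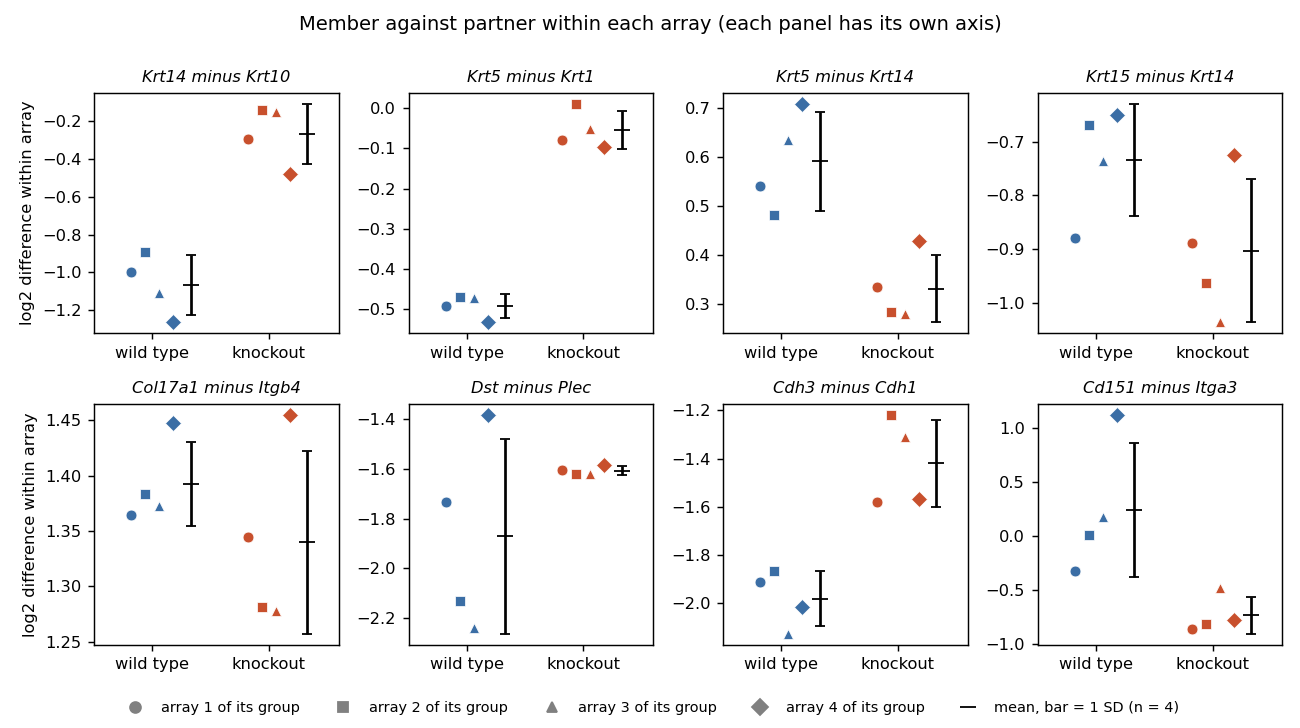
Log2 difference between a member and its partner within each array, wild type on the left and knockout on the right, with the mean and 1 SD (n = 4). Krt5 minus Krt1, Krt14 minus Krt10 and Cdh3 minus Cdh1 are higher on all 4 knockout arrays, Krt5 minus Krt14 and Cd151 minus Itga3 lower. Each panel has its own axis.

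The laminin receptors and ligands of the anchoring complex were mostly higher in the knockout. Of 9 measured anchoring partners 8 rose and 0 fell, with a median of 1.04, against the 6.41% of all genes called higher. The integrin chain Itga3 rose by 1.51 (SE 0.18) and Lamb3, a chain of the basement membrane laminin, by 1.22 (SE 0.15). Lama5 did not pass (0.68, adjusted p = 0.075). Leaving out knockout array 2 left 5 of the partners called. Leaving out wild-type arrays 3 and 4 left 7, with a median of 1.00.

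The other keratins were read in 3 lists. Of 7 suprabasal keratins 0 passed in limma, with differences from -0.56 (Krt77) to 0.48 (Krt80), and Krt24 had the smallest p (0.45, adjusted p = 0.15). Krt2 and Krt24 were dim, with means below the table's median level of 4.45 in both genotypes. At an unadjusted p under 0.05, 3 of the 7 passed, Krt77 lower and Krt80 and Krt24 higher. The share of all genes at that threshold was not counted. Of 6 keratins of stressed epidermis and hair follicle 4 rose, against 6.41% of all genes: Krt16, Krt6b, Krt6a and Krt17. Krt75 was at -0.54 and Krt79 at -0.37. Of 6 simple epithelial keratins 0 passed in limma (0 also at an unadjusted p under 0.05), with Krt19 at -0.18 (adjusted p = 0.30).

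Of the 5 other plakins 0 passed in limma (0 also at an unadjusted p under 0.05), with a median of 0.10 and Evpl, envoplakin of the cornified envelope, at -0.23 (adjusted p = 0.42). Of 9 adherens junction genes 2 rose, Ctnna1 (0.56, SE 0.09) and Vcl (0.44, SE 0.10), the catenin and vinculin that link cadherins to actin. Over all genes the share called higher was 6.41%, and 12.0% at or above the median level of the table, where all 9 lie. The count of 2 fell to 1 after quantile normalization, after cyclic loess, without wild-type arrays 3 and 4, and when wild-type array 2 or 3 or knockout array 1, 2 or 3 was left out. E-cadherin, which ADAM10 is known to cleave, was at 0.52 and missed the threshold (adjusted p = 0.12). Of 11 measured tetraspanins other than Cd151, 1 rose and 1 fell, against 6.41% of all genes called higher and 2.34% lower. Cd9 rose by 0.64 (SE 0.11) and Cd53, a tetraspanin of leukocytes, fell by 1.04 (SE 0.21). With 1 gene each way, these are values of single genes and not of the family. Without wild-type array 4, 3 of the 11 tetraspanins were called higher. In that fit 1997 of all 19935 genes were called, both directions together. The share called higher alone was not counted, so the 3 have no like background. Without wild-type arrays 3 and 4, 2 of the 11 tetraspanins were called higher, against 2.96% of all genes. Of 5 macrophage markers 3 fell too, against 2.34% of all genes called lower. The macrophage sums were 248 to 361 intensity units on the wild-type arrays and 133 to 184 on the knockout arrays. The part of these markers in the Cd53 value was not tested.

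Of 8 regulators of basal keratinocytes 2 rose, Bnc1 (0.83, SE 0.12), a zinc finger protein of basal cells, and the growth factor receptor Fgfr2 (0.64, SE 0.13). Over all genes 6.41% were called higher, and 12.0% of those at or above the median level of the table, where all 8 lie. Without knockout array 2, or without wild-type arrays 3 and 4, 1 of the 8 was called. In the fit without wild-type arrays 3 and 4, 2.96% of all genes were called higher. The list was not tested as a set. The basal transcription factor Trp63 was at 0.51 and did not pass (adjusted p = 0.11). Of 7 measured proliferation markers 5 rose, against 6.41% of all genes, with a median of 0.52 over the markers. Their sums were 577 to 648 intensity units on the wild-type arrays and 811 to 932 on the knockout arrays. The part of cycling cells in the basal genes' values was not tested.

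The genes with the most similar pattern over the 8 arrays were found by the root mean square difference of log2 values centred on each gene's mean. For Col17a1 they were Itgb4 (0.06) and Lamb3 (0.07), and for Cdh3 Lama3 (0.12) and Itgb4 (0.14). For Plec they were Cdh1 (0.04) and Has3 (0.06), for Krt5 Crkl (0.04) and Mon2 (0.04), and for Krt14 Sh3d19 (0.05) and Elk4 (0.06). Krt15 was nearest to Raph1 (0.05) and Plekhm1 (0.05), Dst to Ice1 (0.08) and D16Ertd472e (0.09), and Cd151 to Pdgfb (0.06) and Bub1b (0.08). Among the members the closest were Krt5 and Krt15 (0.10) and the farthest Cdh3 and Cd151 (0.54). Genes that differ by a like amount between the groups are close by this measure, so it is a description only.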

How the data were processed

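Affymetrix Mouse Gene 1.0 arrays were run on 4 wild-type and 4 Adam10 knockout skin samples. The authors deposited RMA intensities, 1 for each probe set on each array, per the submitters' processing notes. For RMA's version, its settings and the genome build, nothing is given in the sources used here. The values ran from 0.817 to 11173 with array medians of 13.3 to 15.1, so they were read as linear, and log2 was taken with no pseudocount. RMA aligns the distributions of probe signals between arrays. Arrays give no depth, so their number limits the precision.

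The table holds 35519 probe sets, of which 21780 have exactly 1 gene symbol, 1605 several and 12134 none. The probe set with the highest mean was kept for each gene, which left 19935 genes. Knockout was compared with wild type in R 4.3.3 by a linear model with moderated variances in limma 3.58.1 (two-sided, Benjamini-Hochberg adjustment over all genes, threshold 0.05). Adjusted p-values are limma's unless another test is named. The fit was tested on simulated data. Pair differences were tested with exact permutation tests (scipy 1.17.1).

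Genes named are the 8 members, their partners in the pairs, up to 2 rises and 2 falls with the smallest p in each of 8 related lists (otherwise the smallest p), and the 2 nearest genes by pattern. Further list members were named after their values were seen. The members, lists, pairs and alternatives were chosen with earlier results of these data known, and the motifs after the data were seen. Promoter windows are from RefSeq, GRCm38.p6. The alternatives were 3 normalizations, the mean over a gene's probe sets, a filter on dim genes, log2 of the value plus 16, a trended and robust prior, 2 covariates, thresholds of 0.01 and 0.10, leaving out each array, and leaving out wild-type arrays 3 and 4.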

Additional observations from a re-analysis of the deposited data

Results flagged for a closer look

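In 3 of 32 groups of 4 values examined for the members and pairs, 1 array lay far from the other 3. Chance gives about 5% of groups. Krt5 was at 11.75 on wild-type array 4, against 12.03 to 12.07 on the other wild-type arrays. Plec was at 6.59 on wild-type array 4, against 7.36 to 7.48. Krt15 was at 11.00 on knockout array 3, against 11.14 to 11.16 on the other knockout arrays.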

How the results depend on the processing

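All differences of the 8 members stayed above 0 under every alternative run, and 0 members were called lower in any. The number called higher was 7 with all arrays, 4 after quantile normalization, 4 after cyclic loess, 4 without wild-type arrays 3 and 4 and 2 at a threshold of 0.01, where Col17a1 and Dst passed. Leaving out 1 array in turn gave 2 to 6. All genes called numbered 1744, with 587 to 1997 when 1 array was left out (leaving out knockout array 1, 2 or 3 gave 911, 587 and 809, and leaving out wild-type array 2 or 3 gave 992 and 750), 925 without wild-type arrays 3 and 4, 478 at 0.01 and 2958 at 0.10.

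Krt5 no longer passed after quantile normalization (0.28), after cyclic loess (0.30), with the muscle covariate (0.25), with the pan-epithelial covariate (0.28) or without wild-type arrays 3 and 4 (0.29). Krt15 no longer passed in the same 5 settings, in that order at 0.35, 0.36, 0.32, 0.36 and 0.34. Krt14 did not pass without wild-type arrays 3 and 4 (0.47), nor Cd151 after quantile normalization (0.40) or cyclic loess (0.38). The cause was not tested. With 1 array left out the differences ran from 0.30 to 0.40 for Krt5, 0.52 to 0.69 for Krt14, 0.38 to 0.54 for Krt15, 0.84 to 1.20 for Cdh3 and 0.42 to 0.64 for Cd151. In the related lists 17 genes were called higher and 1 lower, and with 1 array left out 12 to 19 and 0 to 4 (4 without wild-type array 4, 0 without knockout array 2 or 3). The pairs kept their direction when arrays were left out, but 3 against 4 arrays cannot reach an exact p of 0.05, so those are values with no test. The mean of all probe sets changed no member, since each has 1. No paired analysis was possible because the labels give the groups no shared replicate numbers.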
